A study of Mus musculus with 2 samples.

Results

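Genes of glucose breakdown, of the response to low oxygen and of nutrient uptake were followed through the innate lymphoid cells (ILCs) of the mouse small intestine, with and without tristetraprolin. The set was a list of 33 gene symbols, and all 33 were found among the 31053 features of both libraries. It holds the glucose transporters Slc2a1 and Slc2a3, the enzymes from hexokinase to lactate dehydrogenase, the lactate carriers Slc16a1 and Slc16a3, the oxygen-responsive factor Hif1a with its regulators Egln1 and Egln3, known targets of that factor, the amino acid transporter pair Slc7a5 and Slc3a2, and the stress gene Ddit4.

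Single-cell libraries of 3 prime transcript tags were made from cells of the small intestinal lamina propria (the layer under the gut epithelium) of C57BL/6 mice. Sorted cells were live and CD45+, lacked lineage markers, CD3 and TCRβ, and carried CD90.2 and CD127. Cells of 4 wild-type mice (WT) and of 4 Zfp36-/- mice (Zfp36_KO, called knockout here) were pooled, giving 1 library per genotype. Age, sex and the structure of the Zfp36 allele were not given in the sources used here, and the deletion is carried by all cells of the animal, not by ILCs alone. Without replicate libraries, differences between genotypes are given as ratios and carry no p-value. The intervals printed are exact 95% intervals for counting error only, and leave out the spread between mice and between cells.

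Zfp36 encodes tristetraprolin (TTP), a protein that binds AU-rich sequences in the 3 prime untranslated region (3 prime UTR) of messenger RNAs and promotes their decay. Glycolysis turns glucose into pyruvate and lactate and is the faster route to energy in activated lymphocytes. Hif1a encodes the oxygen-regulated subunit of the HIF-1 transcription factor, which is marked for destruction by the prolyl hydroxylases (Egln genes) when oxygen is present and switches on glycolytic and other hypoxia genes when it is not. The gut mucosa is a tissue of low oxygen, and among its ILCs the ILC2 make type 2 cytokines, the ILC3 make IL-22 and IL-17, and the ILC1 and NK cells make interferon gamma.

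The libraries held 3593 WT and 3522 knockout barcodes, of which 2 were shared, with 24721524 and 27733804 unique molecular identifiers (UMIs, each standing for 1 captured transcript). After filtering, 3352 and 3290 cells remained. Cells were assigned to classes by the number of marker genes with a UMI. The gates held 620 WT and 1132 knockout ILC2, 829 and 796 ILC3, 174 and 170 ILC1/NK cells, 119 and 148 plasma cells, and 103 and 356 myeloid cells. Median UMIs per cell were 6296 and 5788 in ILC2, 4686 and 4075 in ILC3, 5195.5 and 4496.5 in ILC1/NK cells, 39173 and 31633 in plasma cells, and 9036 and 21335.5 in myeloid cells. The 10 most enriched genes of each of these 5 classes held markers of its own list and none of another list in both libraries, although the gates used those markers. Plasma, myeloid and T cells were present although the sort was for ILCs: T cells numbered 1192 in WT and 63 in knockout and were not compared. A Y-linked UMI was found in 4 WT and 521 knockout cells, so sex also differed between the pools and cannot be told apart from genotype.

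Zfp36 checked the labels. Its level, as the class's UMIs of the gene scaled to CPM (counts per 1e6 UMIs of the class), was lower in the knockout library in all 5 classes. It was 710 and 335 CPM in WT and knockout ILC2 (log2 ratio of knockout over WT -1.09), and 1174 and 304 CPM in ILC3 (-1.95). The log2 ratio was -1.50 in ILC1/NK cells, -1.44 in plasma cells and -0.67 in myeloid cells. Tags remained in the knockout library, and 3 prime tags outside the changed part of the gene would not show the loss.

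TTP's core binding sequence, TATTTAT, was looked for in the longest annotated 3 prime UTR of each member (GENCODE M21, build mm10), on the transcript strand only. It was present in 13 of the 33 members, against 27.6% of 20985 genes, but over longer sequence: the median 3 prime UTR searched was 1263 bases in members and 961 bases in all genes. Vegfa and Hif1a held 3 copies each, with 2 of the Hif1a copies overlapping. Hk2, Pfkfb3, Pfkp and Slc2a3 held 2, the Pfkfb3 copies overlapping, and Egln3, P4ha1, Pdk1, Pfkm, Pgk1, Slc16a3 and Slc2a1 held 1. Hilpda, Ldhb, Slc16a1, Bnip3 and the other members had no match in this window. The sites of the members at 1.5-fold or more in ILC3 are given 5′ to 3′ on the gene's strand, with the motif in capitals, since members on both sides (Vegfa and Hif1a higher, Hk2 lower in knockout ILC3) carry it.
Vegfa, chr17:46017597-46017621, minus strand: aatttcaacTATTTATgagatgtat
Vegfa, chr17:46017168-46017192, minus strand: gttatcattTATTTATtggtgctac
Vegfa, chr17:46017065-46017089, minus strand: cgtagtacaTATTTATttttaaaca
Hif1a, chr12:73945805-73945829, plus strand: tcagcagtcTATTTATattttctat
Hif1a, chr12:73946007-73946031, plus strand: gcaccttttTATTTATttatttttg
Hif1a, chr12:73946011-73946035, plus strand: ctttttattTATTTATttttggtga
Hk2, chr6:82726565-82726589, minus strand: taagtaatgTATTTATatgttcctt
Hk2, chr6:82725903-82725927, minus strand: tatacgagtTATTTATtccagactg
Egln3, chr12:54179142-54179166, minus strand: tcatgtcctTATTTATtttgtttat
P4ha1, chr10:59371920-59371944, plus strand: acaatgaccTATTTATgatcttaaa
Pfkfb3, chr2:11472050-11472074, minus strand: cagatgtgcTATTTATttatttaat
Pfkfb3, chr2:11472046-11472070, minus strand: tgtgctattTATTTATttaatatgt

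The HIF-1 core sequence was looked for in the RefSeq promoter windows (GRCm38.p6) from 250 bases before to 50 bases after each gene start, as ACGTG or GCGTG on both strands, where overlapping matches count separately. A match was present in 37 of the 45 windows of the 30 members with an entry (82.2%), against 43.8% of all 32851 windows. At least 3 matches were present in 28.9% of member windows and 8.93% of all windows. The list was made with known HIF-1 targets in it, so these shares do not test the members. Some windows of the same gene overlap (Eno1, Aldoa and Pfkm), and base composition was not matched. The 250 bases upstream of 4 members that differed between the libraries are shown 5′ to 3′ on the gene's strand, with matches (CACGT and CACGC when on the other strand) in capitals. Over the full window Slc16a1 and Bnip3 have 5 matches each, a number reached by 4 member windows and 1.66% of all windows, and Ldhb has 1. The 4 are examples and do not stand for all members that differed. Hilpda and Hk2, lower in knockout ILC2 and ILC3, have 1 and 3 matches in 2 windows and 2 matches. Vegfa and Egln3, higher in knockout ILC3, have 2 and 0 matches in 2 windows and 1 match.
P4ha1, chr10:59323046-59323295, plus strand: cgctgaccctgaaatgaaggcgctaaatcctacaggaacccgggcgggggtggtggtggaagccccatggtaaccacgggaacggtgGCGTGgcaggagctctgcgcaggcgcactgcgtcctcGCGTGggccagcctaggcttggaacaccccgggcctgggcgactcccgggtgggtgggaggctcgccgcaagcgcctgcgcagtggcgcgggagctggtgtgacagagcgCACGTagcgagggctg
Slc16a1, chr3:104638414-104638663, plus strand: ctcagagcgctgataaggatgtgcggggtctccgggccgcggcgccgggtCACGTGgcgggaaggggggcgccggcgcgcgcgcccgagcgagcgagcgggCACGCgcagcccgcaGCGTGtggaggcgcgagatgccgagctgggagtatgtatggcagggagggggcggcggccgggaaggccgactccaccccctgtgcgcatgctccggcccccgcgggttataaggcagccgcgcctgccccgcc
Bnip3, chr7:138909507-138909756, minus strand: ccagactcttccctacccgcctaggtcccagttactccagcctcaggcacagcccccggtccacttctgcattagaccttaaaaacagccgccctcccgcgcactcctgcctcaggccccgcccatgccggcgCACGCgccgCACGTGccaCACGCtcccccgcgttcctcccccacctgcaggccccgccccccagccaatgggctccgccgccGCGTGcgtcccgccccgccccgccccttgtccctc
Ldhb, chr6:142507958-142508207, minus strand: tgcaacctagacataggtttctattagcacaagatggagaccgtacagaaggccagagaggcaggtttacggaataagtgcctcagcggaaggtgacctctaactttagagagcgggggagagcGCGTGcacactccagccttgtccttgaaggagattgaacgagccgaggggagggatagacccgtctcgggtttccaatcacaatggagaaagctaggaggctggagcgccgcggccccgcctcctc
A match is a description of the letters and does not show binding. As a description of the same kind, the median log2 ratio in ILC3 was 0.12 over 6189 genes with no TATTTAT, 0.24 over 1767 genes with 1 copy and 0.31 over 1014 genes with more, and it was 0.06, 0.28 and 0.50 over 17, 5 and 6 members. In ILC2 the values were 0.13, 0.27 and 0.34 over all genes and 0.08, 0.26 and 0.47 over members. In myeloid cells they were 0.09, 0.12 and 0.20 over all genes and 0.29, 0.47 and 0.45 over members. The length of the 3 prime UTR was not held fixed, and the cause of these steps was not tested.

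Across the whole set, the members were not shifted together in ILC2 or ILC3. A gene counted as measured with at least 50 UMIs over both libraries, and as higher or lower at 1.5-fold or more. In ILC2, 29 members were measured; 4 were higher (all genes 16.2%) and 2 lower (all genes 3.09%) in knockout, and their median log2 ratio of 0.21 lay near the 0.18 of all genes. In ILC3, 6 of 28 were higher (all genes 14.6%) and 2 lower (4.27%), with a median of 0.11 against 0.16. In ILC1/NK cells 4 of 20 were higher (17.4%) and 1 lower (4.89%), with 0.16 against 0.15. In plasma cells 2 of 21 were higher (21.1%) and 0 lower (5.62%), with 0.14 against 0.18. In myeloid cells 7 of 31 were higher (15.7%) and 1 lower (7.99%), with a median of 0.38 against 0.11. That gate held different cells in the 2 libraries, and among its C1q cells alone the medians were 0.27 and 0.15.

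The median of all genes was above 0 in each class, so the counts were also taken relative to it. With that median set at 0, the members higher and lower were 2 and 2 in ILC2 (all genes 8.67% and 6.48%), 2 and 3 in ILC3 (7.8% and 8.32%), 2 and 1 in ILC1/NK cells (10.8% and 8.75%), 2 and 3 in plasma cells (12.4% and 10.5%), and 6 and 2 in myeloid cells (11.3% and 10.9%). On that scale several members named in the following paragraphs came below 1.5-fold: Slc2a3 (0.55) and Hk1 (0.43) in ILC2, Hif1a (0.55), Egln3 (0.52), Bnip3 (0.52) and Pfkfb3 (0.46) in ILC3, Pgk1 (0.51) and Pgam1 (0.45) in ILC1/NK cells, and Ldha (0.51) in myeloid cells. Without the 5% of cells richest in the gene, the log2 ratio was 1.95 for Slc2a3 in ILC2 and 1.79 for Aldoc in myeloid cells. In ILC3 it was then 1.84 for Vegfa, 1.98 for P4ha1, 1.61 for Bnip3, 1.61 for Pfkfb3 and -2.42 for Ldhb. For a gene seen in few cells, this step takes out unlike parts of the cells with a UMI in the 2 libraries. Slc2a3, for example, was seen in 7.1% of WT and 12.3% of knockout ILC2. These values therefore do not show that a few cells carried the ratio. The summed level of all 33 members was 4785 and 4418 CPM in WT and knockout ILC2, 4185 and 4279 in ILC3, 3640 and 4065 in ILC1/NK cells, 1152 and 1315 in plasma cells, and 4197 and 5389 in myeloid cells. In plasma cells, leaving immunoglobulin genes out of the total kept 2 members past 1.5-fold.

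**Figure D1:**
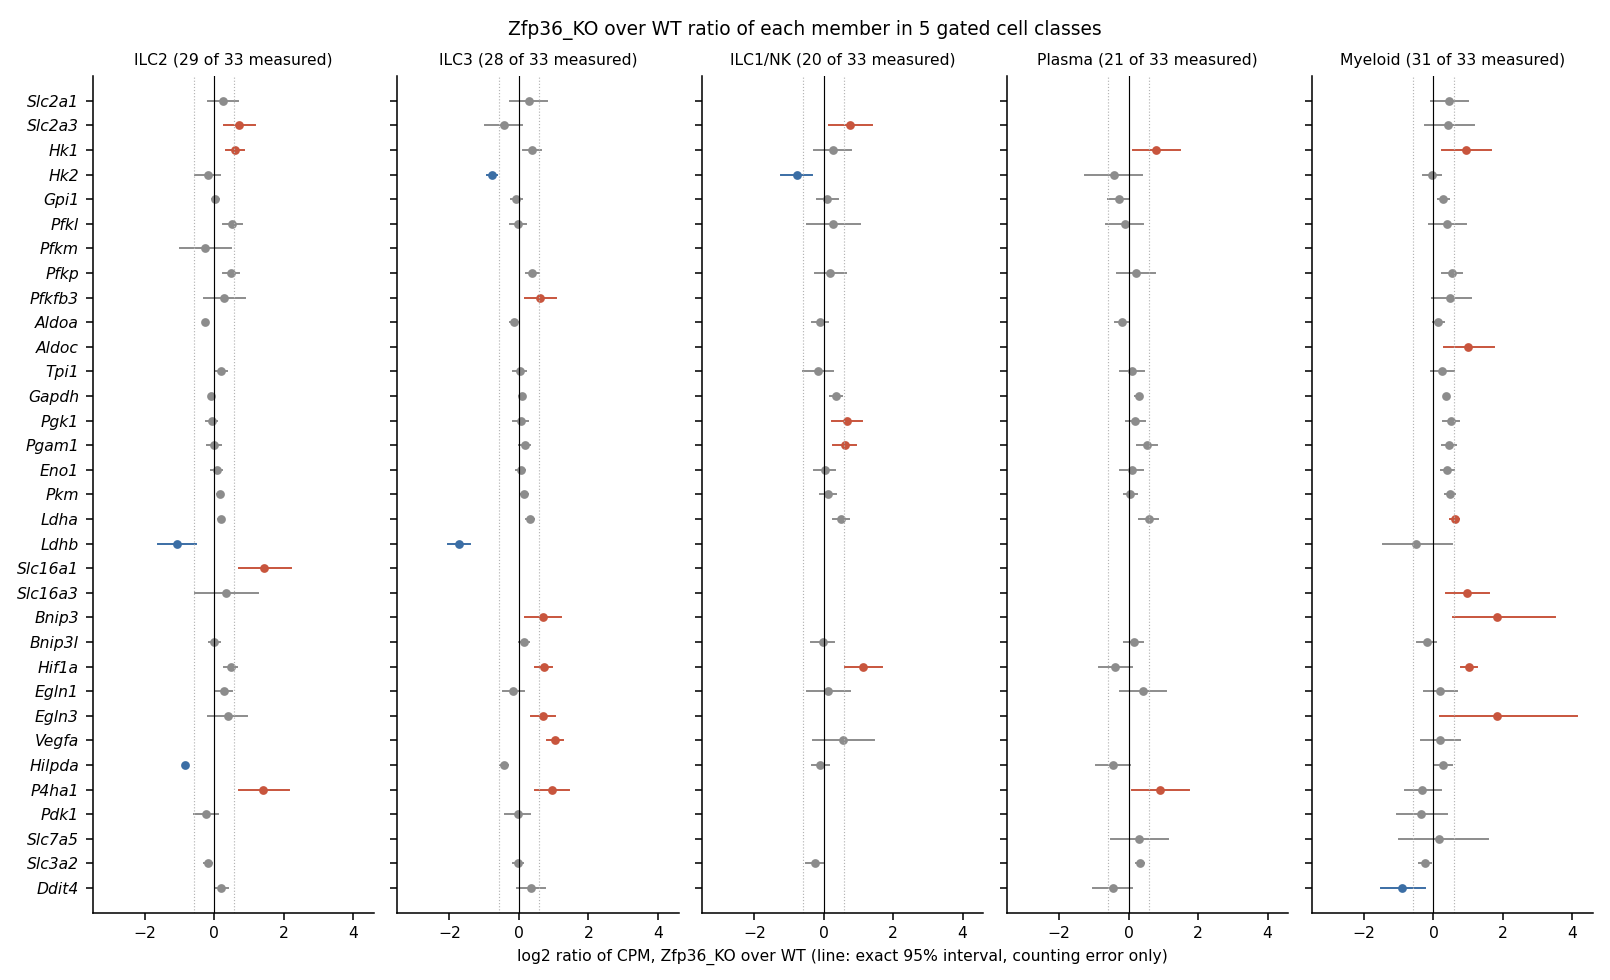
Log2 ratio of CPM, knockout over WT (x axis), for each measured member (rows) in 5 gated classes (panels). Points are class sums of 1 library per genotype, lines are exact 95% intervals, dotted lines mark 1.5-fold, and red or blue points lie beyond it. Most members lie between the dotted lines, and Ldhb in ILC3 lies lowest at -1.72.

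Glucose enters the cell through Slc2a1 (GLUT1) and Slc2a3 (GLUT3), the latter a high-affinity carrier. Slc2a3 had 60 UMIs in WT and 163 in knockout ILC2, or 14.2 and 23.6 CPM, a log2 ratio of 0.73 (0.29 to 1.18). It was also higher in knockout ILC1/NK cells, at 39.4 and 67.1 CPM (0.77). These ratios came below 1.5-fold in ILC2 with equal weight per cell (0.52), and in ILC1/NK cells with 1 marker more in the gate (0.56). In ILC2 without cytokine transcripts Slc2a3 had 20 and 48 UMIs, or 30.9 and 28.6 CPM (-0.11, -0.89 to 0.72). In ILC3 carrying Ncr1 it went the other way, with 58 WT and 20 knockout UMIs, or 30.8 and 13.5 CPM (-1.19, -2.00 to -0.44). Slc2a1 was sparse in every class, and its log2 ratios of 0.26 in ILC2, 0.28 in ILC3 and 0.44 in myeloid cells all had intervals that included 0.

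Hexokinases trap glucose as glucose 6-phosphate: Hk1 is the broadly expressed form, and Hk2 the form that HIF-1 and activation signals induce. Hk2 (ENSMUSG00000000628, mm10 chr6:82725025-82774454, minus strand) was counted with 1051 WT and 512 knockout UMIs in ILC3, or 253 and 148 CPM, so it was 1.71-fold lower in knockout (log2 ratio -0.78, -0.93 to -0.62). Hk1 was higher in knockout ILC2, at 43.6 and 66.3 CPM (0.60, 0.35 to 0.86), in plasma cells, at 6.78 and 11.7 CPM (0.79, 0.12 to 1.48), and in myeloid cells, at 14.9 and 28.3 CPM (0.92, 0.26 to 1.66). Among C1q myeloid cells its interval included 0. In ILC2 the Hk1 ratio was 0.52 without ribosomal protein and mitochondrial genes in the total. Its log2 ratio in ILC3 was 0.38, under the 1.5-fold line. In ILC3 with no UMI of Ccr6 or Ncr1 the Hk1 ratio lay at that line (0.59, 0.03 to 1.16). Hk2 made up 81.0% (78.7 to 83.1) of hexokinase 1 and 2 UMIs in WT ILC3 and 65.6% (62.2 to 69.0) in knockout ILC3. In ILC2, where Hk1 was the main form, the Hk2 share was 36.8% and 25.2%.

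Hk2 was lower in knockout in 2 of the 3 ILC3 subsets. ILC3 were divided by UMIs of Ccr6, a marker of lymphoid-tissue inducer-like cells, and of Ncr1, the NKp46 gene of NCR+ cells. Ccr6 cells (306 WT, 205 knockout) had 161 and 164 CPM of Hk2, a log2 ratio of 0.03. Ncr1 cells (327 and 278) had 303 and 154 CPM (-0.98, -1.20 to -0.75), and cells with neither (172 and 282) had 316 and 137 CPM (-1.21, -1.52 to -0.90). With each cell thinned to 2000 UMIs (shallower cells left out: 9 WT and 21 knockout ILC3, 5 and 7 ILC2), an Hk2 UMI was seen in 35.6% (30.4 to 41.0) of WT Ncr1 cells and 21.01% (16.4 to 26.3) of knockout ones, against 0.84% and 2.70% of plasma cells. Without thinning the shares in Ncr1 cells were 56.6% and 41.0%. In ILC1/NK cells Hk2 stood at 127 and 73.9 CPM (-0.78, -1.24 to -0.33), but at 0.39 when the gate asked for 1 marker more. ILC3 markers were at 1373 and 1394 CPM in that gate, beside 4810 and 4675 CPM in ILC3.

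**Figure D2:**
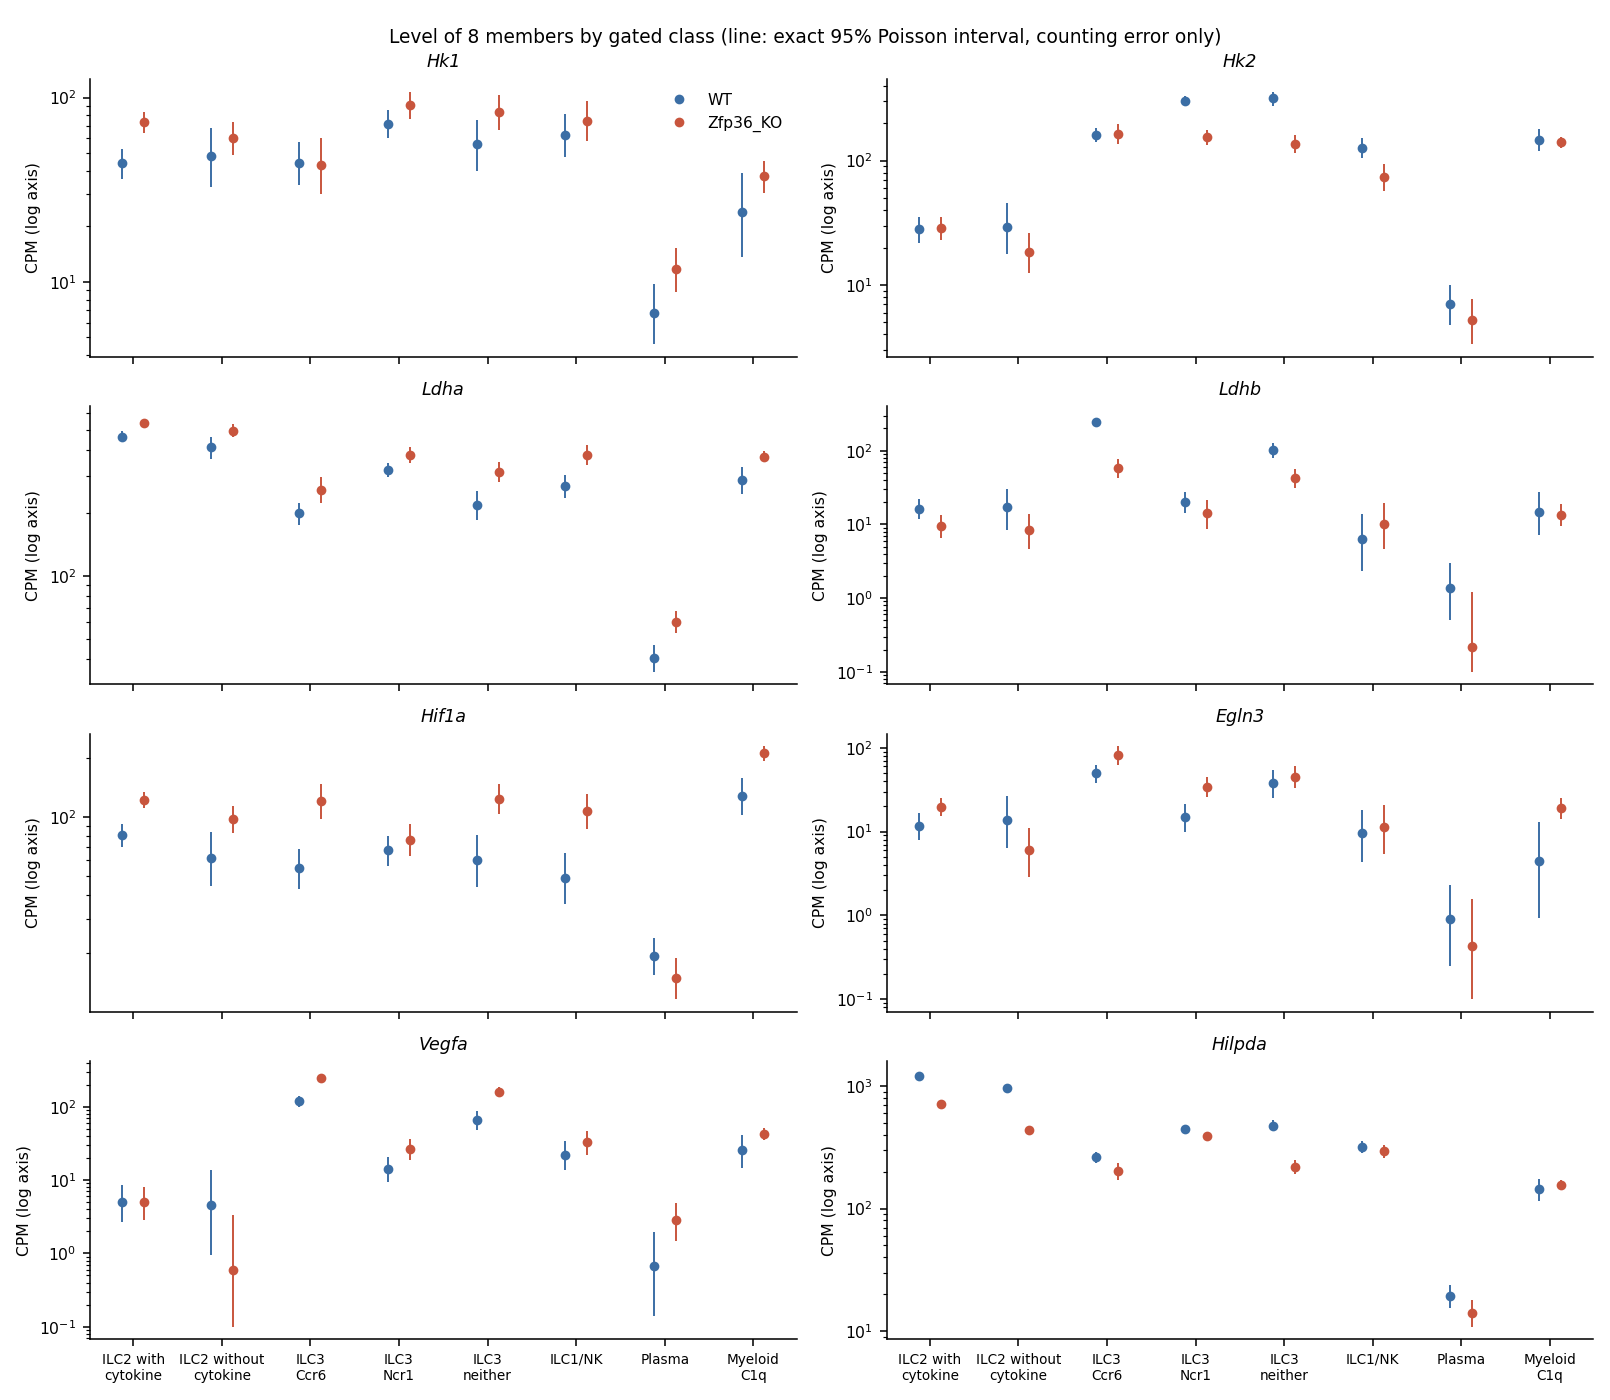
Level in CPM (log axis) of 8 members in 8 gated classes or subsets, WT in blue and knockout in red, with lines for exact 95% Poisson intervals cut at 0.1 CPM. Hk2 lies at 303 and 154 CPM in WT and knockout ILC3 with Ncr1, and at 161 and 164 CPM in ILC3 with Ccr6.

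Phosphofructokinase commits sugar to glycolysis, and Pfkfb3 makes the small molecule that activates it. Pfkfb3 had 74 WT and 95 knockout UMIs in ILC3, or 17.8 and 27.4 CPM (log2 ratio 0.62, 0.17 to 1.08; 0.55 without ribosomal protein and mitochondrial genes in the total). Ccr6 cells had 24 and 26 of these UMIs (0.88, 0.02 to 1.74). Among the enzyme's 3 subunits, Pfkp was the most abundant in both libraries in ILC2 and ILC3, with 56.6% and 57.6% of the family's UMIs in ILC2. Its log2 ratio was 0.49 in ILC2, 0.38 in ILC3 and 0.52 in myeloid cells, and Pfkl stood at 0.53, -0.02 and 0.38. No subunit with at least 50 UMIs passed 1.5-fold in a whole class, and Pfkm had 13 WT and 32 knockout UMIs in ILC3. In ILC2 without cytokine transcripts Pfkp was at 47.9 and 74.6 CPM (0.64, 0.06 to 1.25). That ratio was 0.45, under 1.5-fold, with the median of all genes set at 0.

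The enzymes from Gpi1 to Pkm, which carry sugar phosphate down to pyruvate, were close to level in ILC2 and ILC3. In ILC2 the log2 ratios of Gpi1, Aldoa, Tpi1, Gapdh, Pgk1, Pgam1, Eno1 and Pkm ran from -0.25 for Aldoa to 0.21 for Tpi1, and in ILC3 from -0.13 for Aldoa to 0.17 for Pgam1. Gapdh, the most abundant of them, had log2 ratios of -0.08 and 0.09. The ILC3 subsets differed for Pgam1. It was at 114 and 191 CPM in cells with neither Ccr6 nor Ncr1 (0.74, 0.36 to 1.12), and at -0.28 (-0.62 to 0.05) in Ccr6 cells. In ILC1/NK cells Pgk1 was at 86.1 and 136 CPM (0.66, 0.24 to 1.09) and Pgam1 at 133 and 201 CPM (0.60, 0.26 to 0.94). Both calls lay at the line: Pgam1 was at 0.41 to 0.55 over all 8 alternatives run, and Pgk1 at 0.43 to 0.69. Several of these genes have near-identical copies in the genome, and reads shared with a copy may not be counted. The brain-type aldolase Aldoc was measured in myeloid cells only, at 14.2 and 28.2 CPM (0.99, 0.31 to 1.75), and at 0.56 among C1q cells.

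Lactate dehydrogenase joins 2 kinds of subunit: Ldha favours turning pyruvate into lactate, and Ldhb the reverse. Ldhb (ENSMUSG00000030246, mm10 chr6:142490249-142507957, minus strand) was counted with 454 WT and 115 knockout UMIs in ILC3, or 109 and 33.2 CPM, so it was 3.30-fold lower in knockout (2.68 to 4.08). Its log2 ratio of -1.72 was the lowest of any measured member in the 5 classes. In ILC2, with far fewer UMIs, it was also lower, at 15.7 and 7.53 CPM (-1.06, -1.61 to -0.51). The log2 ratio of Ldha lay above 0 throughout, as did the median of all genes. It was 0.21 in ILC2, 0.31 in ILC3, 0.50 in ILC1/NK cells and 0.57 in plasma cells. In myeloid cells it was 0.61, with Ldha at 390 and 596 CPM (0.38 among C1q cells). With the median of all genes set at 0, the Ldha ratio was 0.03 in ILC2 and 0.35 in ILC1/NK cells.

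The Ldhb transcript was concentrated in Ccr6 cells. There it had 322 WT and 46 knockout UMIs, or 242 and 58.6 CPM (log2 ratio -2.04, -2.52 to -1.60), and it made up 54.9% (50.7 to 58.9) of lactate dehydrogenase UMIs in WT and 18.5% (13.9 to 23.9) in knockout. Cells with neither subset gene had 101 and 42.3 CPM (-1.25, -1.82 to -0.69). Ncr1 cells had 20.2 and 14.2 CPM, and their interval included 0 (-0.51). After thinning, an Ldhb UMI was seen in 34.1% (28.8 to 39.7) of WT Ccr6 cells and 11% (7.02 to 16.2) of knockout ones, against 1.17% and 1.24% of ILC1/NK cells; unthinned, the Ccr6 shares were 51.3% and 15.6%. With the knockout subsets averaged at their WT shares the ILC3 log2 ratio was -1.69, and the alternatives tried put it between -2.42 and -1.60. The value of -2.42 came from leaving out the 5% of cells richest in the gene.

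**Figure D3:**
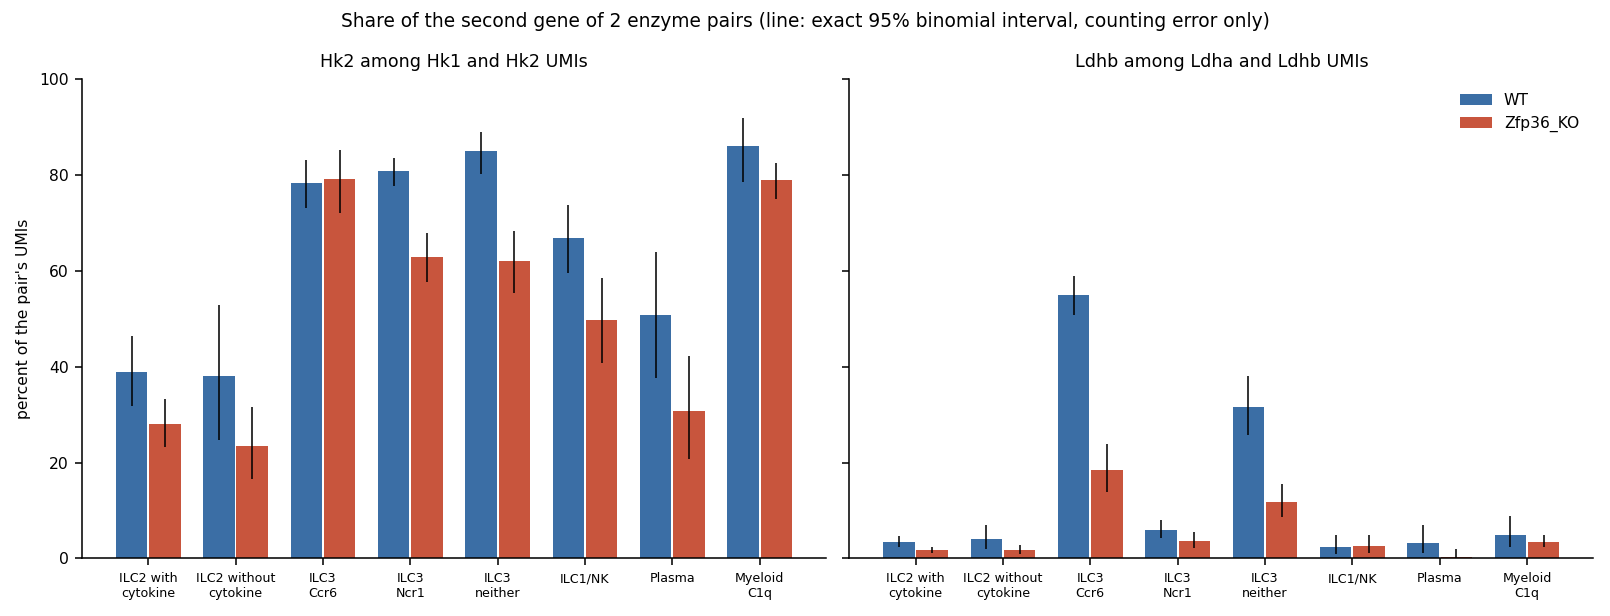
Share (percent) of Hk2 among Hk1 and Hk2 UMIs and of Ldhb among Ldha and Ldhb UMIs in 8 gated classes or subsets, WT in blue and knockout in red, with exact 95% binomial intervals. In ILC3 with Ccr6 the Ldhb share is 54.9% in WT and 18.5% in knockout, while the Hk2 share is 78.4% and 79.1%.

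Lactate leaves or enters the cell through Slc16a1 (MCT1) and Slc16a3 (MCT4). Slc16a1 had 20 WT and 89 knockout UMIs in ILC2, or 4.74 and 12.9 CPM (log2 ratio 1.44, 0.73 to 2.22), and in ILC2 with cytokine transcripts 4.28 and 14.2 CPM (1.73, 0.76 to 2.83). ILC2 without had 7 and 22 UMIs. After thinning, 0.65% (0.18 to 1.66) of WT ILC2 and 1.78% (1.09 to 2.73) of knockout ILC2 had a UMI, beside 0.12% and 0.13% of ILC3; unthinned, 2.9% and 6.8% of ILC2 did. Slc16a3 was higher in knockout myeloid cells, at 18.7 and 36.3 CPM (0.96, 0.36 to 1.61), but its log2 ratio was 0.28 among cells with C1q transcripts.

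Of the oxygen-sensing genes, Hif1a and Egln3 were higher in knockout ILC3 and Egln1 was not. Hif1a (ENSMUSG00000021109, mm10 chr12:73901375-73947530, plus strand) had 254 WT and 347 knockout UMIs in ILC3, or 61.2 and 100.2 CPM (log2 ratio 0.71, 0.47 to 0.95). It was higher also in ILC1/NK cells, at 48.9 and 107 CPM (1.13, 0.60 to 1.67), and in myeloid cells, at 132 and 267 CPM (1.01, 0.79 to 1.24). Over all ILC2 its log2 ratio was 0.47, under the 1.5-fold line, but it was 0.60 (0.36 to 0.85) in ILC2 with cytokine transcripts and 0.65 (0.15 to 1.19) in ILC2 without. With the median of all genes set at 0, it was 0.43 and 0.47 in these subsets, under that line. In plasma cells it was -0.38 with an interval that included 0. Within ILC3 it stood at 1.14 (0.69 to 1.60) in Ccr6 cells and 1.05 (0.55 to 1.58) in cells with neither gene, and at 0.18 in Ncr1 cells. After thinning, the share of ILC3 with a Hif1a UMI was 9.02% (7.15 to 11.2) and 20.3% (17.5 to 23.3), against 3.36% and 3.38% of plasma cells; unthinned, the ILC3 shares were 23.6% and 31.8%.

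Of the prolyl hydroxylases, Egln3 (PHD3, itself a HIF target) was higher in knockout ILC3, with 125 and 168 UMIs, or 30.1 and 48.5 CPM (0.69, 0.34 to 1.03). Its log2 ratio was 0.72 (0.20 to 1.24) in Ccr6 cells, 1.21 (0.52 to 1.93) in Ncr1 cells and 0.25 (-0.46 to 0.98) in cells with neither. In ILC2 with cytokine transcripts Egln3 was also higher (0.76, 0.12 to 1.44), and over all ILC2 it stood at 0.39. ILC2 without cytokine transcripts had 9 and 10 UMIs of Egln3, too few to count as measured (-1.22, -2.68 to 0.25). Egln1 (PHD2), the main oxygen sensor, had log2 ratios of 0.28 in ILC2 and -0.17 in ILC3. In myeloid cells Egln3 rested on 3 WT UMIs beside 58 in knockout (1.82, 0.20 to 4.14).

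Vegfa (ENSMUSG00000023951, mm10 chr17:46016993-46032369, minus strand), the blood-vessel growth factor and a HIF target, had the highest log2 ratio (1.03) of the measured members in ILC3. It had 254 WT and 433 knockout UMIs, or 61.2 and 125 CPM, and was 2.04-fold higher in knockout (1.75 to 2.39). The log2 ratio was 1.04 (0.73 to 1.36) in Ccr6 cells, 0.88 (0.13 to 1.64) in Ncr1 cells and 1.28 (0.81 to 1.78) in cells with neither, so all 3 subsets were past 1.5-fold. Among thinned ILC3 a Vegfa UMI was present in 6.34% (4.77 to 8.23) for WT and 13.5% (11.2 to 16.2) for knockout, against 1.63% and 0.53% of ILC2; unthinned, the ILC3 shares were 10.7% and 17.8%. In ILC2 it had only 22 and 25 UMIs.

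Other HIF targets did not share 1 direction. P4ha1, a collagen prolyl hydroxylase subunit, was higher in knockout ILC2 (4.98 and 13.2 CPM, 2.64-fold, 1.63 to 4.48), in ILC3 (14.2 and 27.4 CPM, 0.95, 0.46 to 1.44) and in plasma cells (4.75 and 8.88 CPM, 0.90, 0.11 to 1.74). Bnip3, a mitophagy gene, was higher in ILC3 (13.5 and 21.6 CPM, 0.68, 0.16 to 1.21) and myeloid cells (5 and 98 UMIs, 1.84, 0.57 to 3.49; 2.91 with 1 marker more in the gate), while its more abundant relative Bnip3l stood at 0.13 and -0.20. Pdk1, which restrains pyruvate entry to mitochondria, had log2 ratios of -0.24 in ILC2, -0.04 in ILC3 and -0.36 in myeloid cells.

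Hilpda (ENSMUSG00000043421, mm10 chr6:29272488-29275446, plus strand), a HIF target that blocks the breakdown of stored lipid, was lower in knockout ILC2. It was the most abundant member in WT ILC2, with 4558 UMIs and 1081 CPM, against 4169 UMIs and 603 CPM in knockout, or 1.79-fold lower (log2 ratio -0.84, -0.90 to -0.78). Its rank among all genes of the class was 133 in WT and 195 in knockout. It was lower in ILC2 with cytokine transcripts (1215 and 711 CPM, -0.77) and in ILC2 without (968 and 437 CPM, -1.15, -1.30 to -0.99). Once thinned, 56.1% (52.1 to 60.1) of the WT ILC2 held a Hilpda UMI and 44.3% (41.3 to 47.2) of those from the knockout, against 4.20% and 1.35% of plasma cells; unthinned, the ILC2 shares were 73.2% and 63.7%. In ILC3 the log2 ratio was -0.42 overall and -1.11 (-1.35 to -0.86) in cells with neither Ccr6 nor Ncr1. In ILC1/NK cells it was -0.11 (-0.35 to 0.14), and in myeloid cells 0.27 (0.01 to 0.53).

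**Figure D4:**
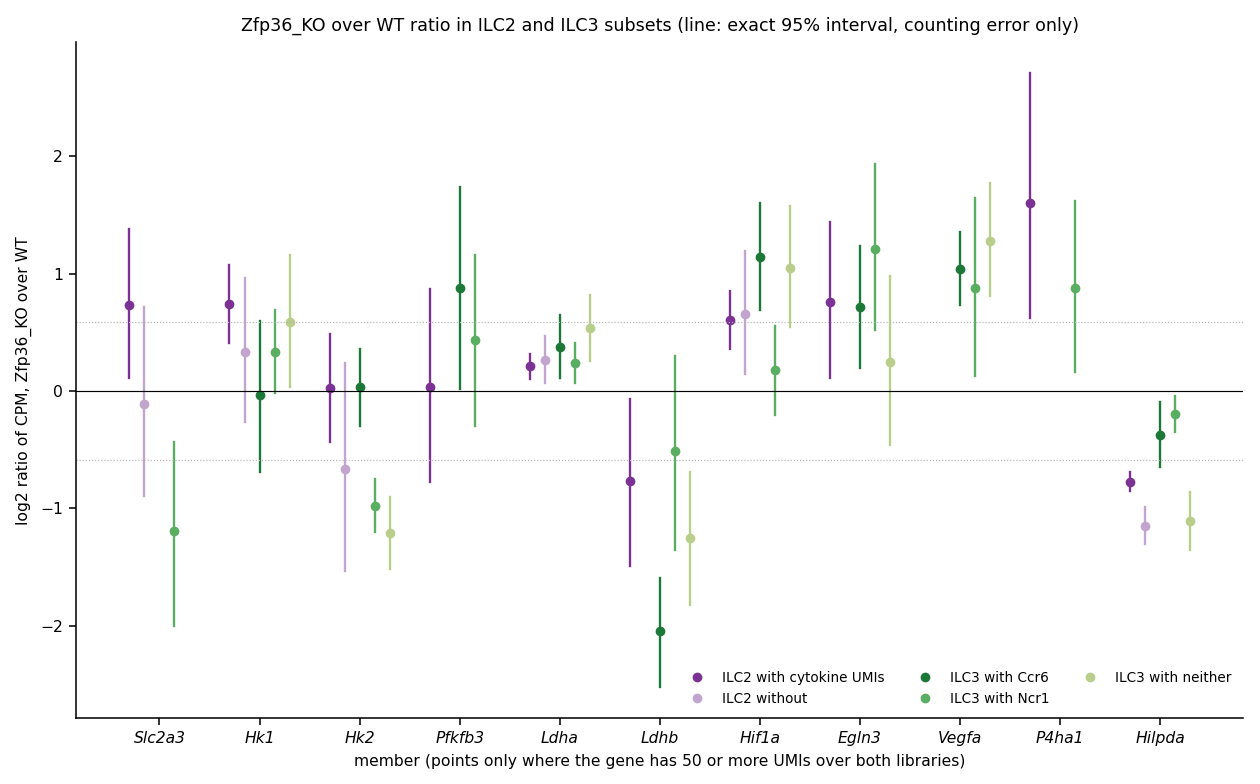
Log2 ratio of CPM, knockout over WT (y axis), of 11 members in 2 ILC2 and 3 ILC3 subsets (colours), with exact 95% intervals and dotted lines at 1.5-fold. Vegfa lies above the upper line in all 3 ILC3 subsets, Hk2 lies at 0.03 in ILC3 with Ccr6 and at -0.98 and -1.21 in the other ILC3 subsets, and Hilpda lies below 0 in all 5.

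Slc3a2, the heavy chain shared by several amino acid transporters, was abundant in all classes, and its log2 ratios ran from -0.27 in ILC1/NK cells to 0.33 in plasma cells. Slc7a5 (LAT1), its partner for large neutral amino acids, was near the limit of detection, with at most 8.92 CPM in any gated class or subset. Ddit4, a stress-induced inhibitor of mTORC1, was lower in knockout myeloid cells (22.4 and 12.0 CPM, -0.90, -1.52 to -0.25). That ratio was -1.81 with equal weight per cell and -1.55 without cells that had a Y-linked UMI. Among C1q cells it was -0.74, with an interval that included 0. The log2 ratio was 0.21 in ILC2 and 0.35 in ILC3, and in ILC1/NK cells Ddit4 had 10 and 35 UMIs, too few to count as measured (1.90, 0.86 to 3.08).

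The myeloid gate held different cells in the 2 libraries. Cells with transcripts of at least 2 of the C1q genes, a mark of macrophages, numbered 76 of 103 in WT and 157 of 356 in knockout, and cells with no C1q transcript 19 and 170. Among C1q cells alone, 5 of 26 measured members were higher (all genes 19.3%) and 1 lower (6.62%). The intervals excluded 0 for 3 of the higher ones, and included it for Hk1 and Vegfa (higher) and Ddit4 (lower). Hif1a was at 128 and 212 CPM there (0.72, 0.39 to 1.07), Pfkl at 22.4 and 41.4 CPM (0.89, 0.11 to 1.77), and Egln3 had 3 and 51 UMIs (2.10, 0.47 to 4.43). The log2 ratio of Ldha was 0.38. T markers summed to 1680 CPM in WT and 384 CPM in knockout C1q cells, and their part in these ratios was not tested.

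Other signals differed between the libraries in the same cells. The 10 immediate-early and heat-shock genes taken as signs of handling stress had UMIs in every class, and their sum was lower in knockout throughout, at 9515 and 7761 CPM in ILC2, 14834 and 12383 in ILC3, 11622 and 8615 in ILC1/NK cells, 3576 and 3171 in plasma cells, and 8996 and 6102 in myeloid cells. In ILC3, the 8 markers of ILC1/NK cells, of which 0 in WT and 1 in knockout were at 0, summed to 801 and 404 CPM, and the 11 myeloid markers, of which 1 and 0 were at 0, to 504 and 376 CPM. The 8 T cell markers summed to 2211 and 1455 CPM in ILC2, 1282 and 901 in ILC3, and 2040 and 1320 in ILC1/NK cells. In plasma cells their sum was 172 and 16.9 CPM, and in myeloid cells 978 and 181 CPM. The subset mix of ILC3 differed as well, with Ccr6 cells at 36.9% and 25.8% and cells with neither gene at 20.7% and 35.4%. The part of these signals in the members' ratios was not tested.

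ILC2 were also compared within each library by cytokine transcripts. Cells with 2 or more UMIs of Il4, Il5 and Il13 together made up 57.7% of WT and 43.2% of knockout ILC2, and cells with none 16.9% and 26.2%. In WT 1 of 23 measured members was higher in cytokine cells (Slc2a1, with an interval that included 0; all genes 6.7%) and 1 lower (4.41%), Slc2a3 at 12.8 against 30.9 CPM (log2 ratio -1.27, -2.11 to -0.39). In knockout 3 of 25 were higher (3.65%) and 1 lower (3.25%). The higher ones were Egln3, at 19.8 against 5.97 CPM (1.73, 0.76 to 2.86), Hilpda, at 711 against 437 CPM (0.70, 0.58 to 0.83), and Hk2, at 28.5 against 18.5 CPM (0.62, 0.02 to 1.26). Ddit4 was lower, at 68.7 against 125 CPM (-0.87, -1.15 to -0.59). The same ratio for Hilpda in WT was 0.33, but when cells were thinned before the cytokine gate it was 0.69 in WT and 0.68 in knockout. When Areg and Csf2 were added to the cytokines the WT count became 9, with 49 cells left without cytokine UMIs, and the WT Hilpda ratio became 1.33.

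ILC2 and ILC3 of the same library differed in which glycolytic genes they carried. All tags are counted at the transcript's 3 prime end, so levels need no scaling by length. In both libraries ILC2 had more Gpi1, Aldoa, Ldha, Hilpda and Ddit4, and less Hk2, Pfkl, Pfkp, Pfkfb3, Pgam1, Eno1, Ldhb, Bnip3, Bnip3l, Egln3, Vegfa and P4ha1, than ILC3, at 1.5-fold or more and with intervals that excluded 0. The counts were 5 higher and 12 lower of 28 in WT (all genes 7.16% and 30.3%), and 7 and 13 of 31 in knockout (9.33% and 29.8%), with Slc2a3 and Slc16a1 joining the higher and Pfkm (interval including 0) the lower ones. The median of all genes was -0.34 and -0.32 here. With that median set at 0 the counts were 9 and 11 in WT (13.4% and 15.8%) and 9 and 10 in knockout (15.6% and 15.9%).

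Vegfa and Hk2 were far lower in ILC2 than in ILC3 in both libraries. Vegfa had 5.22 CPM in ILC2 and 61.2 in ILC3 of WT (log2 ratio -3.55, -4.25 to -2.92), and 3.62 and 125 CPM in knockout (-5.11, -5.75 to -4.53). Hk2 had 25.4 and 253 CPM in WT (-3.32, -3.62 to -3.03) and 22.3 and 148 CPM in knockout (-2.73). Hilpda ran the other way, at 1081 and 386 CPM in WT (1.49) and 603 and 289 CPM in knockout (1.06). Slc16a1 had 2 UMIs in knockout ILC3 against 89 in knockout ILC2 (4.48, 2.58 to 7.55).

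Within ILC3, Ccr6 and Ncr1 cells also divided the members. Ccr6 cells had more Ldhb, Egln3, Vegfa and Ddit4 in both libraries, and less Hk1, Pfkp, Pgk1, Eno1, Pkm, Hilpda and Slc3a2. Counts were 4 higher and 10 lower of 26 in WT (all genes 13.8% and 12.7%), and 6 higher and 7 lower of 25 in knockout (12.5% and 11.3%). Vegfa stood at 119 against 14.3 CPM in WT (log2 ratio 3.05, 2.45 to 3.69) and 244 against 26.3 CPM in knockout (3.22, 2.71 to 3.75). Ldhb stood at 242 against 20.2 CPM in WT (3.58, 3.09 to 4.11), and at 58.6 against 14.2 CPM in knockout (2.05, 1.27 to 2.87). Hk2 was lower in Ccr6 than in Ncr1 cells in WT (-0.91, -1.15 to -0.68) and level in knockout (0.09). In the WT library the 10 genes most enriched in Ncr1 cells held Klrk1 of the ILC1/NK list and none of the ILC3 list, so these cells are named by their gate.

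**Figure D5:**
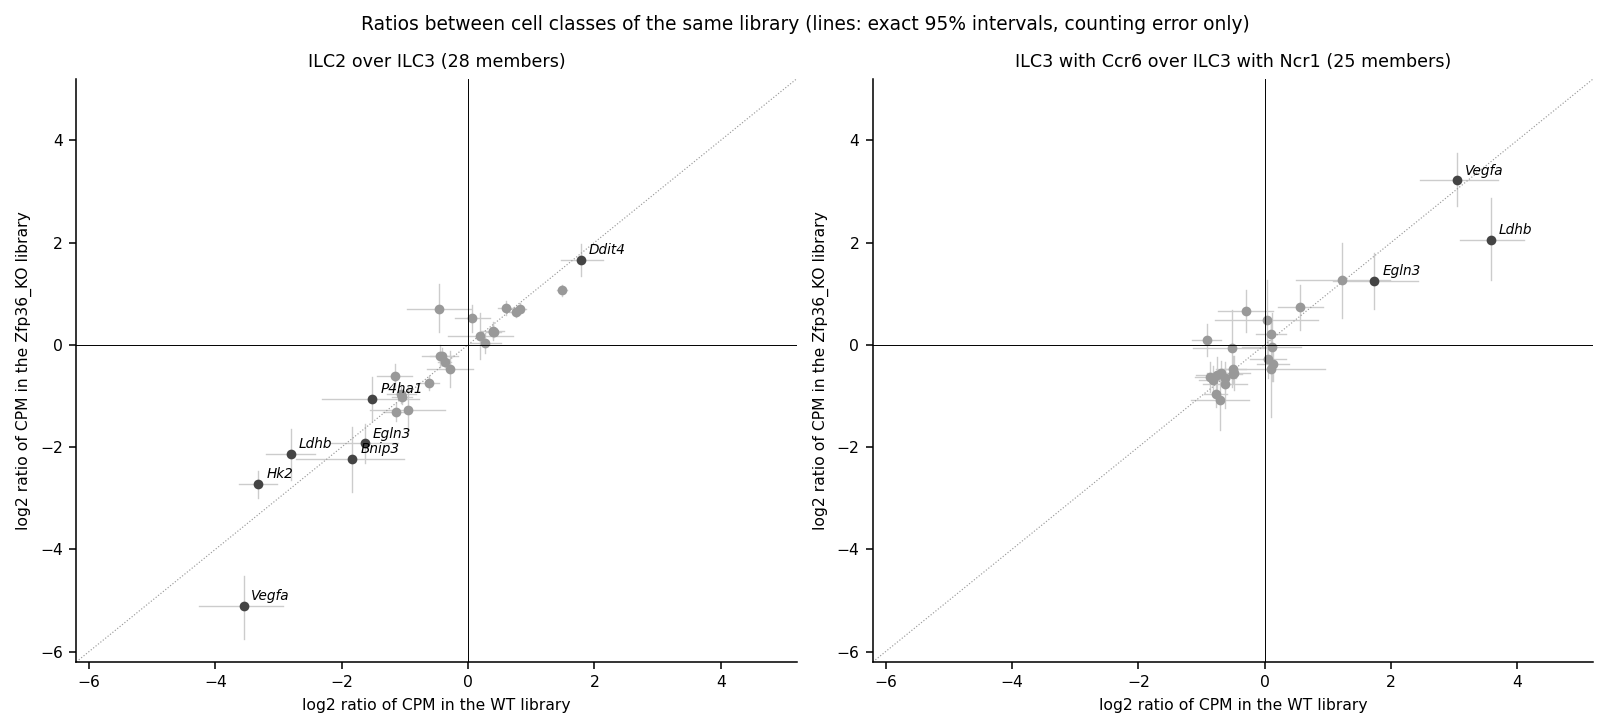
Log2 ratio of CPM between classes of the same library, WT on the x axis and knockout on the y axis, for ILC2 over ILC3 (left) and for ILC3 with Ccr6 over ILC3 with Ncr1 (right); lines are exact 95% intervals, the dotted diagonal marks equal ratios, and members beyond 1.5 on either axis are named. Vegfa lies at -3.55 and -5.11 on the left, and Ldhb at 3.58 and 2.05 on the right.

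Neighbouring pathways were counted from lists of related genes, to be read against the shares of all genes higher and lower, 16.2% and 3.09% in ILC2 and 14.6% and 4.27% in ILC3. No gene of the pentose phosphate branch passed 1.5-fold in ILC2 or ILC3 among 7 measured. Of other glycolysis and glycogen genes, 2 of 11 were higher and 0 lower in ILC2, and 1 higher and 1 lower of 11 in ILC3, where the hexokinase Hk3 was at 25.3 and 11.3 CPM (log2 ratio -1.17, -1.74 to -0.63). Of genes of mitochondrial pyruvate use, 0 of 9 passed in ILC2, and 1 of 11 was higher in ILC3. Of other HIF regulators and targets, 3 of 15 were higher in ILC2 and 3 of 17 higher and 1 lower in ILC3, among them the collagen lysyl hydroxylase Plod2 (10.1 and 31.8 CPM, 1.65, 1.12 to 2.20) and the peptide hormone gene Adm (36.6 and 13.6 CPM, -1.43, -1.94 to -0.95).

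Of other nutrient transporters, 4 of 16 were higher in ILC2 and 4 of 14 in ILC3, and none was lower in either; with the median of all genes set at 0 the counts were 4 higher and 1 lower in ILC2 and 3 and 0 in ILC3. The peptide transporter Slc15a2 was 6.00-fold higher in ILC2 (23 and 226 UMIs, log2 ratio 2.58, 1.96 to 3.27) and 4.90-fold higher in ILC3 (34 and 139 UMIs, 2.29, 1.74 to 2.88). The amino acid carrier Slc7a6 was at 1.52 (0.68 to 2.47) and 1.19 (0.54 to 1.87). Slc15a2 was higher in myeloid cells too, at 9.0 and 30.3 CPM (1.75, 0.92 to 2.73), as was the transferrin receptor Tfrc, at 23.9 and 51.2 CPM (1.10, 0.58 to 1.67). Of 18 measured mTORC1, ATF4 and energy stress genes, 3 were higher and 1 lower in ILC2, and 2 and 1 in ILC3.

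In the smaller classes genes of the same lists were also named at 2-fold, and the share of all genes past 2-fold was not counted. Arrdc4, an arrestin domain gene that lowers glucose uptake, was at 75.5 and 261 CPM in ILC1/NK cells (log2 ratio 1.79). In plasma cells the transcription factor Bhlhe40 was at 26.0 and 5.6 CPM (-2.21, -2.88 to -1.58), Psat1 of serine synthesis at 4.5 and 10.8 CPM (1.26, 0.49 to 2.09) and Chac1, an ATF4 target, at 7.5 and 15.4 CPM (1.04, 0.43 to 1.68), while Sesn3 was lower (-1.06, -1.92 to -0.25). In myeloid cells the mTOR inhibitor Deptor (14.9 and 51.0 CPM, 1.77), the glycogen phosphorylase Pygl (1.01), Tigar (1.41), Pdk3 (1.12), Pdp2 (1.71) and Anln (2.25) were higher, and Txnip, a brake on glucose uptake (265 and 124 CPM, -1.09), and Ddit3 (-1.13) lower. Among C1q cells alone, Deptor, Pygl and Pdp2 were still higher at 1.5-fold or more, and Txnip and Ddit3 lower. Tigar, Pdk3 and Anln were not past 1.5-fold there or were not measured.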

How the data were processed

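The authors deposited 1 table of UMI counts per library as gene, barcode and feature lists. Per the labels, cells of 4 mice per genotype were pooled and libraries made with a Chromium 3 prime kit. Per the submitters' processing notes, Cell Ranger 3.1.0 and the build mm10 were used; other settings were not given in the sources used here. The values are raw counts of UMIs, not normalized.

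Cells with at least 500 genes and at most 10% mitochondrial UMIs were kept, and barcodes with a Scrublet score above 0.25 (scanpy 1.11.5) were removed as doublets, 45 in WT and 49 in knockout. Classes were gated by marker genes with a UMI: 3 markers for each ILC class, 5 for plasma and 5 for myeloid cells. ILC gates also allowed a UMI of at most 1 of the T cell genes checked. A further gate condition is not reported here. ILC3 with both Ccr6 and Ncr1 UMIs were in no subset. Gate thresholds were set after values had been seen, and the member list and the other lists were chosen with earlier results of these data known. UMIs were summed per class and library and scaled to the class total (CPM). The log2 ratio of 2 sums has an exact binomial interval (scipy 1.17.1, numpy 2.4.6, pandas 2.3.3, Python 3.11.15). Members were named in whole classes at 50 or more UMIs over both sums, a fold of 1.5 or more and an interval that excluded 0. Subset ratios between the libraries are given for only part of the members that met the same rule. Genes of other lists were named at 2-fold. The interval code was tested on simulated data. Figures were drawn with matplotlib 3.10.9.

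With 1 library per genotype there is no replicate and no test, and in sums over pooled cells fewer expressing cells and less RNA per cell cannot be told apart except where shares of cells are given. Free RNA was not removed from the counts. Alternatives were other cell filters, stricter gates, other scalings, equal weight per cell, leaving out the 5% of cells richest in a gene, and other cytokine and subset rules. The immunoglobulin-free total, the C1q gate and the subset weights were alternatives chosen after seeing the data.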

Additional observations from a re-analysis of the deposited data

Results flagged for a closer look

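Slc2a3, the GLUT3 glucose carrier, had ratios of opposite direction in different cells, each with an interval that excluded 0. Its log2 ratio of knockout over WT was 0.73 in ILC2, 0.77 in ILC1/NK cells and 0.73 in ILC2 with cytokine transcripts, and -1.19 in ILC3 with Ncr1. In ILC2 without cytokine transcripts it was -0.11, with an interval that included 0 (-0.89 to 0.72). The gaps to ILC3 with Ncr1 were 1.92 for ILC2, 1.96 for ILC1/NK cells and 1.92 for ILC2 with cytokine transcripts. The difference was not tested, since each genotype is 1 library. ILC2 with cytokine transcripts are part of the ILC2, so those values are not independent. The level in ILC3 with Ncr1 rested on 58 WT and 20 knockout UMIs.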

How the results depend on the processing

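No paired analysis was possible because each genotype is 1 library, and for the same reason no replicate could be left out. Of the counts of members past 1.5-fold recomputed under an alternative, 39 stayed within 1.5 times the reported count and 17 did not. Of the recomputed ratios of single members, 229 stayed within the interval of the reported value, 21 moved beyond it and 1 changed sign. The cause of these changes was not tested.

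Asking for at least 200 UMIs gave 3 members in ILC2 (6 as reported), 5 in ILC3 (8), 2 in ILC1/NK cells (5), 0 in plasma cells (2) and 5 in myeloid cells (8), and fewer members are measured there. With the median of all genes set at 0, ILC3 had 5, ILC1/NK cells 3 and plasma cells 5. In ILC1/NK cells the count was 3 over all deposited barcodes, 3 with doublets kept, 3 without ribosomal protein and mitochondrial genes, 3 with equal weight per cell, 8 at 20 UMIs and 2 with 1 marker more, where the log2 ratio of Hk2 was 0.39. Equal weight per cell gave 13 in myeloid cells. For ILC2 with over without cytokine transcripts, adding Areg and Csf2 gave 9 in WT (2 as reported), and 1 or more cytokine UMIs gave 2 in knockout (4).

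Over the alternatives the log2 ratio ran from -1.02 to -0.78 for Hilpda in ILC2, -0.94 to -0.68 for Hk2, 0.85 to 1.84 for Vegfa, 0.55 to 0.88 for Hif1a and 0.78 to 1.98 for P4ha1 in ILC3, and 0.52 to 1.95 for Slc2a3 in ILC2. The upper ends for Vegfa, Hif1a, P4ha1 and Slc2a3 came from leaving out the 5% of cells richest in the gene. Members with few UMIs, such as Slc7a5 in the ILC classes and Egln3 and Ldhb in ILC1/NK and plasma cells, could not be compared at this depth.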
